A study of Ovis aries with 3 samples.

Results

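PKM and PDK4 are 2 genes that act on either side of pyruvate, and they are described here across the cells of rumen epithelium from lambs on 3 diets. Both were taken by their symbols, 1 row each (ENSOARG00000018886 for PKM and ENSOARG00000003501 for PDK4) of the 26247 genes in each library's gene list. They were chosen by their UMI counts per diet, keratinocyte class and immune cells, with earlier results of these libraries in view, so their levels between diets and classes are a description and carry no test. PKM encodes the muscle-type pyruvate kinase, which makes pyruvate in the last step of glycolysis. PDK4 encodes a pyruvate dehydrogenase kinase that phosphorylates and switches off the pyruvate dehydrogenase complex, the enzyme that turns pyruvate into acetyl-CoA, and it is known as a gene of fasting, fatty acid use and glucocorticoid response. The rumen epithelium is a stratified lining that takes up short-chain fatty acids and turns butyrate into ketone bodies. The deposited values are counts per gene, so the splice forms of PKM, which differ in their regulation, were not told apart.

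The study has 3 droplet single-cell libraries of rumen epithelium from Hu sheep, a Chinese breed, all 42 days old. The milk-only animals got no solid feed, the hay group got milk and alfalfa hay, and the concentrate group got milk and a concentrate starter. Each diet has 1 library and the labels do not say how many lambs it holds, so no difference between diets has a replicate check. The tissue was digested with trypsin-EDTA at 37 degrees before the cells were loaded, and that step is shared by all 3 groups.

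After removal of barcodes with fewer than 500 genes or with 20% or more mitochondrial counts, 15772 of 25789 barcodes remained: 3850 with milk only, 7031 for hay and 4891 for concentrate. The median depth was 11021, 5887 and 8050 unique molecular identifiers (UMIs, counted molecules) per cell. The 3 libraries shared 15 to 28 barcodes in each pair before the filter and 2 to 8 after it. Clustering gave 14 clusters. Keratinocytes made up 89.1%, 99.5% and 95.8% of the cells, with KRT15, a basal keratin, at 7973, 6303 and 7880 CPM (UMIs per 1000000 UMIs summed over the cells). They were split into cycling cells, differentiated keratinocyte-like cells and the rest, called other keratinocytes below, in which 4 of 6 basal markers reached 20 CPM in each library. Differentiated cells numbered 667 with milk only but 24 with hay and 37 with concentrate. T or NK-like cells numbered 306, 3 and 40, and macrophage or dendritic-like cells 109, 30 and 50. Most clusters of other keratinocytes were largely of 1 library, and such a cluster may be that library rather than a cell type. All intervals below are exact, at 95%, and cover counting error only.

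PDK4 was far more abundant in keratinocytes of the milk-only library than in the others. Its level was 129.1 CPM with milk only (125.9 to 132.4, from 6135 UMIs), 24.5 for hay (23.1 to 26.0, 1106 UMIs) and 18.2 for concentrate (16.9 to 19.5, 809 UMIs). The 3 intervals did not overlap, and milk only stood apart from the other two. PDK4 was 5.26-fold lower with hay than with milk only (4.94 to 5.62) and 7.11-fold lower with concentrate than with milk only (6.60 to 7.66). Those 2 ratios share the milk-only library. Against hay, the concentrate level was 1.35-fold lower (1.23 to 1.48). PDK4 was past 2-fold lower in both comparisons with milk only, as were 9.67% of the 4757 genes measured at 10 CPM or more in hay against milk only and 6.37% in concentrate against milk only. It took place 127 from the lowest with hay and place 65 with concentrate.

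Within the milk-only library, PDK4 lay almost wholly in 1 cluster. That cluster was led by RCAN1, ITPKC, ZFP36 and ATF3, and 1177 of its 1185 cells were milk-only cells. It held 34.3% of the milk-only keratinocytes and 37.7% of their UMIs but 88.4% of their PDK4 UMIs. PDK4 stood at 302.4 CPM there, 10.6-fold above the other keratinocytes of the library outside it (9.68 to 11.5), which were at 28.6 CPM. The other large milk-only cluster, led by GPNMB, had 28.3 CPM in 1402 cells. Both had similar depth, with a median of 12607 UMIs per cell in the ZFP36 and ATF3 cluster and 12122 in the GPNMB cluster.

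That cluster was singled out for its PDK4, which was also among the clustering genes, so leaving it out lowers the milk-only level by construction. Without it, the log2 ratio of PDK4 in hay against milk only went from -2.40 to 0.0052, and that of concentrate against milk only from -2.83 to -0.45. Without it and the FOS and HSPA6 cluster described next, the ratios were -0.83 and -1.25. That second cluster was singled out for its PDK4 in hay and concentrate, so leaving it out lowers those levels by construction. No order of diets is drawn from these ratios. These 2 removals were chosen after the data were seen. In cycling keratinocytes, PDK4 was at 17.1 CPM with milk only, 13.8 for hay and 9.82 for concentrate, and the ratio to milk only was 0.805 for hay (0.537 to 1.24) and 0.574 for concentrate (0.378 to 0.895). The milk-only value there rests on 99 cells and 31 UMIs, and it depended on the clustering. At resolution 1.2, a cycling cluster with 107 milk-only cells of 109 had 139.3 CPM of PDK4. Another there, with 99 milk-only cells of 1167, had 16.1 CPM. Clustered without PKM and PDK4, a cycling cluster with 279 milk-only cells of 1394 had 37.0 CPM over all its cells. At resolution 0.3, the cycling cluster, with 175 milk-only cells of 1702, had 12.7 CPM.

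The hay and concentrate libraries also had a cluster with high PDK4, and it was the same one in both. It was led by HSPA6, FOSB, HSPA1A and FOS, genes of heat shock and of the immediate early response, and held 1466 hay cells, 846 concentrate cells and 9 milk-only cells. PDK4 reached 68.5 CPM there with hay and 74.7 CPM with concentrate, a ratio of 1.09 (0.957 to 1.24) that did not separate the 2 libraries. Against the other keratinocytes outside it, PDK4 was 4.90-fold higher with hay (4.31 to 5.58) and 6.67-fold higher with concentrate (5.75 to 7.75). The cluster held 20.9% of hay keratinocytes and 54.4% of their PDK4 UMIs. With concentrate it held 18.1% of keratinocytes and 47.8% of their PDK4 UMIs. The largest hay cluster, led by FBP1, had 14.1 CPM, and the largest concentrate cluster, led by THEM5 and FABP4, had 10.4 CPM.

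**Figure D1:**
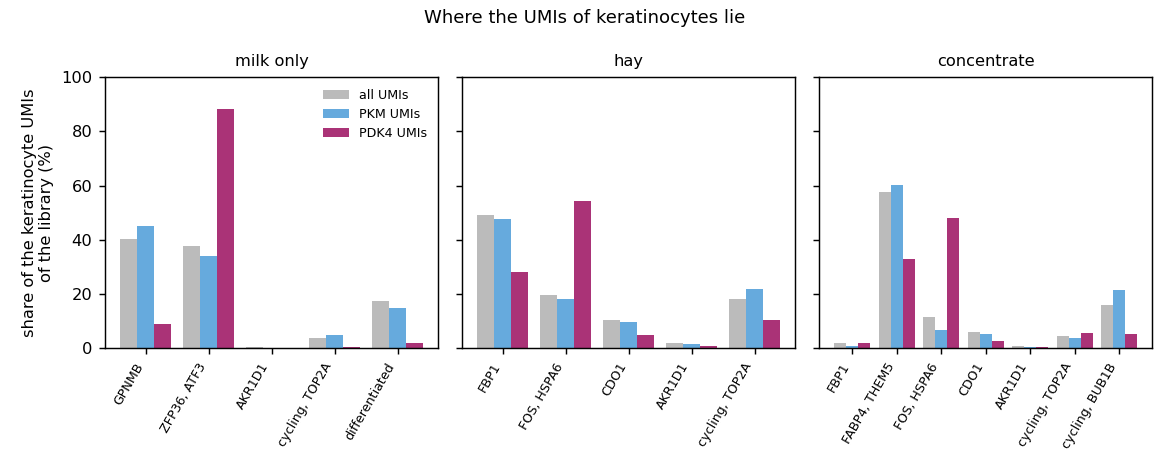
Share of each library's keratinocyte UMIs that lay in each cluster with at least 50 cells of that library, in percent, for all UMIs (grey), PKM UMIs (blue) and PDK4 UMIs (purple); each panel is 1 library and clusters are named by leading genes. In the clusters with the most PDK4, the PDK4 bar stands above the grey and PKM bars: the ZFP36 and ATF3 cluster holds 88.4% of milk-only PDK4 UMIs and the FOS and HSPA6 cluster 54.4% with hay and 47.8% with concentrate.

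The high level came from a minority of cells with many PDK4 molecules. At least 5 PDK4 UMIs were seen in 432 milk-only keratinocytes, 31 hay keratinocytes and 20 concentrate keratinocytes. The highest cell had 48 UMIs with milk only, 14 for hay and 11 for concentrate. PDK4 had no UMI in 59.9% of milk-only keratinocytes and 89.6% of hay keratinocytes. Because depth differed, shares of positive cells were also taken after each cell was thinned to 2000 UMIs. Among other keratinocytes the thinned share with a PDK4 UMI was 20.6% with milk only (of 2590 cells), 4.45% with hay (of 6040) and 3.75% with concentrate (of 3922). Unthinned, the shares were 48.6%, 10.7% and 11.4%. The hay and concentrate intervals overlapped both thinned (3.95 to 5.00 and 3.18 to 4.39) and unthinned (9.97 to 11.6 and 10.4 to 12.4). In the ZFP36 and ATF3 cluster, 38.3% of thinned cells had a PDK4 UMI.

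PKM had another order of diets, with the highest level in the concentrate library. In all keratinocytes it was 353.3 CPM with milk only (347.9 to 358.6, from 16783 UMIs), 212.1 for hay (207.9 to 216.4, 9565 UMIs) and 441.9 for concentrate (435.8 to 448.1, 19671 UMIs). The intervals did not overlap. PKM was 2.08-fold higher with concentrate than with hay (2.03 to 2.14) and 1.25-fold higher than with milk only (1.23 to 1.28), and it was 1.67-fold lower with hay than with milk only (1.62 to 1.71). Past 1.5-fold lower in hay against milk only lay 20.7% of the 4757 genes, and past 2-fold higher in concentrate against hay lay 3.83%. The median log2 ratio of all genes was -0.16 in hay against milk only, 0.04 in concentrate against milk only and 0.19 in concentrate against hay. With the scale set by the median of ratios, which takes those shifts out, the PKM log2 ratios were -0.58, 0.29 and 0.86, against -0.74, 0.32 and 1.06 by CPM. PKM then fell short of 1.5-fold in hay against milk only (a ratio of 0.671) and of 2-fold in concentrate against hay (a ratio of 1.82).

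The order of PKM levels, concentrate then milk only then hay, was seen in other keratinocytes and in cycling cells. Other keratinocytes had 358.3 CPM with milk only, 202.8 for hay and 417.1 for concentrate. Cycling cells had 480.9, 255.3 and 549.7 CPM. Differentiated cells had 301.9 CPM with milk only, 129.8 for hay (27 UMIs in 24 cells) and 277.5 for concentrate (191 UMIs in 37 cells), and the ratio of concentrate to milk only was 0.919 (0.789 to 1.07), so those 2 were not separated. Cycling cells had more PKM than other keratinocytes in all 3 libraries, by 1.34-fold, 1.26-fold and 1.32-fold. Differentiated cells had less in all 3, at 0.842, 0.640 and 0.665 of the level in other keratinocytes. Thinned shares of other keratinocytes with a PKM UMI were 44.5%, 31.7% and 48.6%, in the same order as the levels, and 86.0%, 63.5% and 84.6% before thinning.

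**Figure D2:**
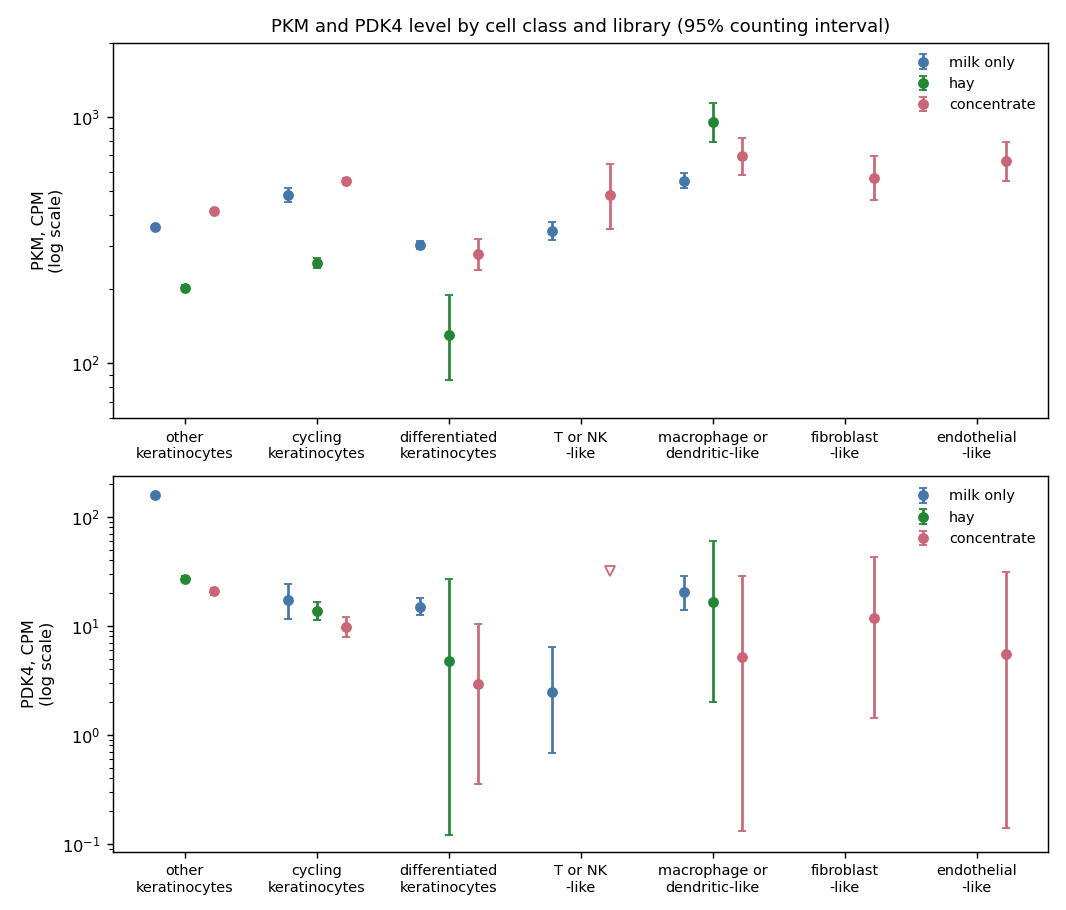
Level of PKM (top) and PDK4 (bottom) in CPM on a log axis, by cell class; points are 1 library each (classes with at least 20 cells), bars are exact 95% counting intervals, and the open triangle is the 32.1 CPM that a count of 0 allows. PKM was highest with concentrate in other and cycling keratinocytes, and PDK4 was highest in other keratinocytes with milk only, at 159.5 CPM.

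Within clusters that 2 libraries shared, PKM differed less evenly. In concentrate against hay the ratio was 1.90 (1.74 to 2.08) in the CDO1 cluster, 1.52 (1.40 to 1.65) in the cycling cluster with TOP2A among its leading genes, and 2.18 (1.70 to 2.80) in the AKR1D1 cluster, which had a median of 0.547% mitochondrial counts. It was 1.25 (1.16 to 1.35) in the FOS and HSPA6 cluster and 1.14 (0.980 to 1.32) in the FBP1 cluster, where the concentrate library had 85 cells. PKM in the concentrate library ranged from 236.1 CPM in the FBP1 cluster and 249.2 in the FOS and HSPA6 cluster to 461.4 in the FABP4 and THEM5 cluster and 594.7 in the concentrate cycling cluster led by ASPM and BUB1B. With hay the range was narrower, from 164.5 CPM in the AKR1D1 cluster to 255.4 in the TOP2A cycling cluster. In that cycling cluster, the only one with at least 50 cells of every library besides the AKR1D1 cluster, milk only was highest with 471.3 CPM, against 255.4 with hay and 387.8 with concentrate. The higher concentrate value over all cycling cells therefore rested on the BUB1B cluster, 480 of whose 491 cells were concentrate cells.

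The clusters with the most PDK4 did not have the most PKM. In the ZFP36 and ATF3 cluster, PKM was 320.1 CPM, at 0.814 of the level in the other keratinocytes outside it (0.786 to 0.842). In the FOS and HSPA6 cluster it was at 0.558 with concentrate (0.527 to 0.591), while with hay it was at 0.976 (0.925 to 1.03), an interval that holds 1.

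**Figure D3:**
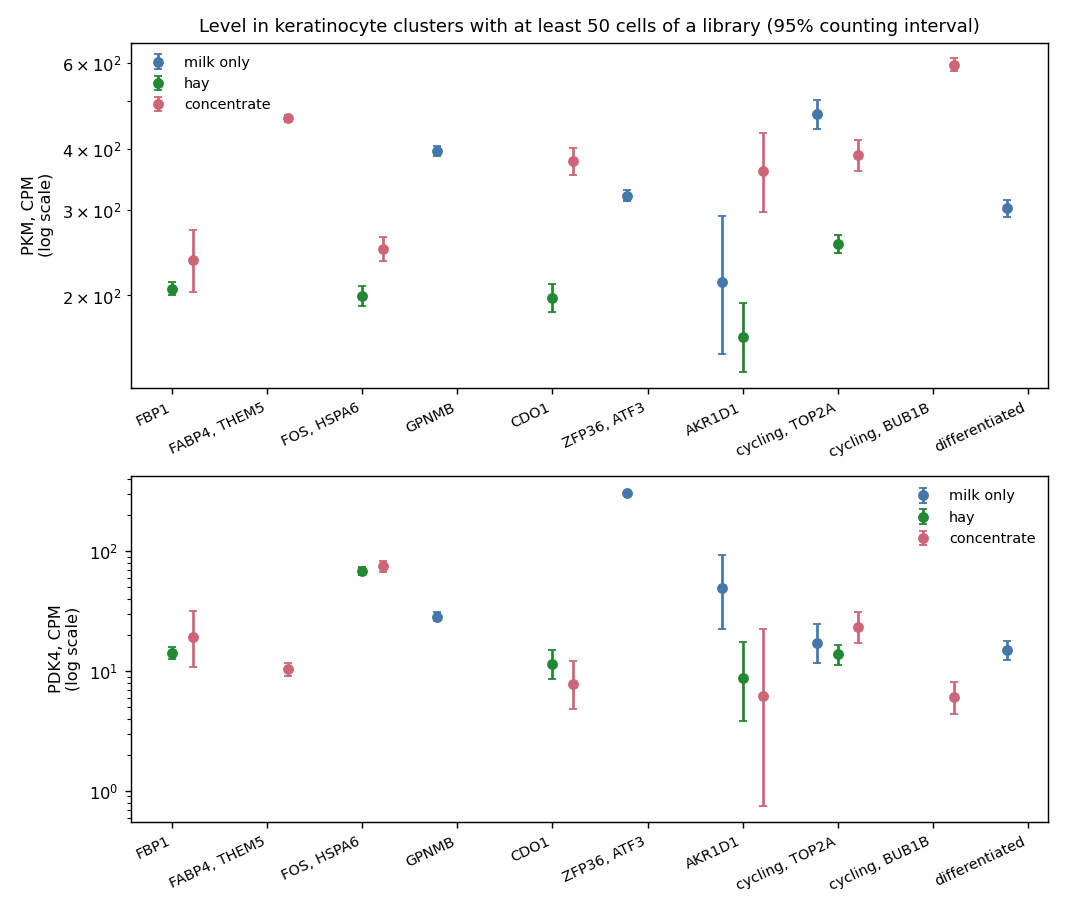
Level of PKM (top) and PDK4 (bottom) in CPM on a log axis in keratinocyte clusters with at least 50 cells of a library; points are 1 library each and bars are exact 95% counting intervals. PDK4 is at 302.4 in the milk-only ZFP36 and ATF3 cluster and at 68.5 and 74.7 in the FOS and HSPA6 cluster, and PKM is highest, at 594.7, in the concentrate cycling cluster led by ASPM and BUB1B.

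Both levels also moved with depth and with mitochondrial share, and the part of these in the differences was not tested. Among other keratinocytes of the concentrate library, PKM was 254.7 CPM in cells under 5000 UMIs, 392.2 from 5000 to under 10000, and 466.7 at 10000 or more. With hay the same strata had 182.4, 207.0 and 218.0 CPM, and with milk only 325.1, 259.0 and 374.5 CPM. Concentrate was above hay in each stratum. Under 5000 UMIs, however, milk only (289.3 to 364.2) was above concentrate (236.8 to 273.6), the reverse of their order over all keratinocytes. In cells under 5%, at 5 to 10% and at 10 to 20% mitochondrial counts, PKM with concentrate was 523.8, 431.0 and 404.5 CPM. With milk only it was 355.3, 372.8 and 331.9 CPM, and with hay 178.8, 206.4 and 200.9 CPM, where the intervals overlapped. PDK4 in the same strata of depth was 81.6, 272.7 and 144.4 CPM with milk only, 33.4, 26.6 and 18.3 with hay, and 54.7, 23.1 and 12.7 with concentrate. Under 5000 UMIs, concentrate (46.5 to 63.8) was thus above hay (29.6 to 37.5), the reverse of the order over all keratinocytes. PDK4 with milk only was 265.7 CPM in cells under 5% mitochondrial counts, 169.0 at 5 to 10% and 58.3 at 10 to 20%. With hay those strata had 9.59, 30.7 and 24.7 CPM, and with concentrate 5.80, 26.7 and 16.8 CPM. Milk only had the highest PDK4 in each stratum of both kinds.

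Immune cells had PKM, and their PDK4 was below that of keratinocytes beyond counting error only with milk only. In macrophage or dendritic-like cells, PKM was 551.3 CPM with milk only (515.2 to 589.3), 953.1 for hay (787.5 to 1143, from 116 UMIs) and 695.5 for concentrate (582.7 to 823.7, 134 UMIs). That was 1.56-fold, 4.49-fold and 1.57-fold above the keratinocytes of the same library. Hay was thus highest in these cells and lowest in keratinocytes, and the ratio of concentrate to hay was 0.730 (0.565 to 0.944). The hay class had 30 cells with a median of 3598 UMIs, against 13599 with milk only. Summed cycling markers in the class were 534.8 CPM with milk only, 1660 for hay and 1479 for concentrate, and their part in the PKM values was not tested. All 12 macrophage or dendritic markers with a symbol had UMIs in the class in every library. Of these, 9 reached 20 CPM with milk only, 8 for hay and 10 for concentrate. Their summed level differed, at 13610, 3911 and 6399 CPM, and its part in the PKM values was not tested.

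T or NK-like cells had 344.8 CPM of PKM with milk only and 481.1 with concentrate (45 UMIs). The ratios to keratinocytes were 0.976 (0.895 to 1.06) and 1.09 (0.794 to 1.46), and neither excluded 1. In the 3 hay cells PKM had 0 UMIs, which allows up to 413.6 CPM. With milk only, macrophage or dendritic-like cells had 1.60-fold more PKM than T or NK-like cells (1.44 to 1.78). In the concentrate library, PKM was also 567.6 CPM in 57 fibroblast-like cells and 663.0 CPM in 59 endothelial-like cells, above keratinocytes by ratios with intervals of 1.04 to 1.57 and 1.24 to 1.80.

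PDK4 in milk-only T or NK-like cells was 2.49 CPM, 4 UMIs in 306 cells, 51.9-fold below keratinocytes (20.2 to 190.4). Those UMIs lay in 3 of the cells. In macrophage or dendritic-like cells it was 20.4 CPM with milk only (32 UMIs), 16.4 for hay (2 UMIs) and 5.19 for concentrate (1 UMI). The ratios to keratinocytes were 0.670 for hay (0.0810 to 2.43) and 0.286 for concentrate (0.00722 to 1.60), and neither excluded 1. Milk-only cycling keratinocytes, at 17.1 CPM, overlapped with the milk-only value. KRT15, which immune cells should lack, was set beside PDK4. It was at 0.0460 of the keratinocyte level in milk-only T or NK-like cells and at 0.177 in macrophage or dendritic-like cells, where PDK4 was at 0.0193 and 0.158. Of the 109 milk-only macrophage or dendritic-like cells, 11 had a PDK4 UMI and 79 a KRT15 UMI. Whether PDK4 in immune cells of the milk-only library is background, doublets or expression was not tested. PDK4 in concentrate T or NK-like cells had 0 UMIs in 40 cells, which allows up to 32.1 CPM, above the keratinocyte level.

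Over the 10 profiles of library and keratinocyte or immune class with at least 50 cells, PDK4 stood apart from all the rest in 1. Milk-only other keratinocytes were highest at 159.5 CPM (155.5 to 163.6). Hay other keratinocytes followed at 27.1 (25.4 to 28.8), above concentrate other keratinocytes at 20.7 (19.2 to 22.2), and milk-only macrophage or dendritic-like cells at 20.4 (13.9 to 28.8) overlapped both. Milk-only cycling cells (17.1), milk-only differentiated cells (14.99), hay cycling cells (13.8) and concentrate cycling cells (9.82) each overlapped with the next. Concentrate macrophage or dendritic-like cells (5.19, 0.131 to 28.9, 1 UMI) overlapped every profile but the first, and milk-only T or NK-like cells were lowest (2.49, 0.678 to 6.37). For PKM the order ran from concentrate macrophage or dendritic-like cells (695.5) over milk-only macrophage or dendritic-like cells (551.3) and concentrate cycling cells (549.7), whose intervals overlapped, down to hay other keratinocytes (202.8).

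The genes most like PDK4 over those 10 profiles, by Pearson's r of log2(CPM + 10) among 2479 genes, were TFPI2 (0.96), RND3 (0.93), ADM (0.91), RCAN1 (0.91) and ITPKC (0.86). RCAN1 and ITPKC, regulators of calcium signalling, also led the ZFP36 and ATF3 cluster, and ADM encodes the peptide adrenomedullin. For PKM they were COL4A3BP, a ceramide carrier, (0.94), and EWSR1, EPS15, LGALS1 and NRAS (0.90 each). Between PKM and PDK4, r was -0.24. PDK4 was at 159.5 CPM in milk-only other keratinocytes and at most 27.1 CPM in the rest, so its r values rest largely on that 1 profile. Nearly all cells of the ZFP36 and ATF3 cluster belong to that same profile. The profiles share libraries, so these values are descriptions.

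Cell by cell, the nearest genes to PDK4 were much the same in the 3 libraries. Over thinned other keratinocytes, ZFP36, which destabilises short-lived mRNAs, had the highest Spearman's rho with PDK4 in each library, 0.46 with milk only, 0.17 for hay and 0.22 for concentrate. JUN and ATF3, stress-induced transcription factors, were among the 5 nearest in all 3, and FOS in hay and concentrate. NFKBIA was among the 5 with milk only, GADD45B with hay and BHLHE40 with concentrate. Inside the ZFP36 and ATF3 cluster, rho of PDK4 with ZFP36 was 0.33 with milk only, and inside the FOS and HSPA6 cluster it was 0.17 with hay and 0.20 with concentrate. In other keratinocytes outside both clusters it was 0.0092, 0.015 and 0.033, where ZFP36 itself was at 62.3, 23.8 and 25.4 CPM. With milk only, rho of PDK4 outside both clusters was 0.10 with JUN and 0.08 with ATF3.

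The share of thinned cells with a PDK4 UMI climbed with their ZFP36 UMIs in all 3 libraries. With milk only it was 5.86% at 0 ZFP36 UMIs (1298 cells) and 40.9% at 3 or more (1049 cells). With hay it was 3.11% (5144 cells) and 23.0% (256 cells), and with concentrate 1.99% (3268 cells) and 17.8% (337 cells). The libraries differed in how many cells had such counts: 3 or more ZFP36 UMIs were found in 1049 of 2590 milk-only cells, 256 of 6040 hay cells and 337 of 3922 concentrate cells. ZFP36 was chosen for this after its rho was seen.

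PKM had weaker neighbours. Its highest rho was 0.17 with ATP1B3, a subunit of the sodium pump, with milk only, 0.07 with HSPA8 with hay and 0.19 with FABP4 with concentrate. GAPDH, a glycolytic enzyme, was among the 5 nearest with milk only (0.16) and hay (0.06). The thinned share with a PKM UMI was 34.1% at 0 and 50.3% at 3 or more GAPDH UMIs with milk only, 27.2% and 34.9% with hay, and 41.3% and 52.2% with concentrate. S100A2 was among the 5 with hay and concentrate.

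PKM and PDK4 showed little coupling with each other. Among milk-only other keratinocytes, 17.8% of PKM-positive cells (15.6 to 20.1) and 22.8% of PKM-negative cells (20.7 to 25.1) had a PDK4 UMI, with rho of -0.07. With concentrate the shares were 2.73% (2.04 to 3.56) and 4.71% (3.83 to 5.73), with rho of -0.05. With hay they were 3.91% (3.09 to 4.88) and 4.71% (4.08 to 5.40), with rho of -0.02 and overlapping intervals. Within single clusters the intervals of the 2 shares overlapped. In the ZFP36 and ATF3 cluster the shares were 36.4% and 39.6%, and in the milk-only GPNMB cluster 5.43% and 6.18%. In the FOS and HSPA6 cluster they were 8.84% and 11.4% with hay and 8.57% and 11.5% with concentrate.

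**Figure D4:**
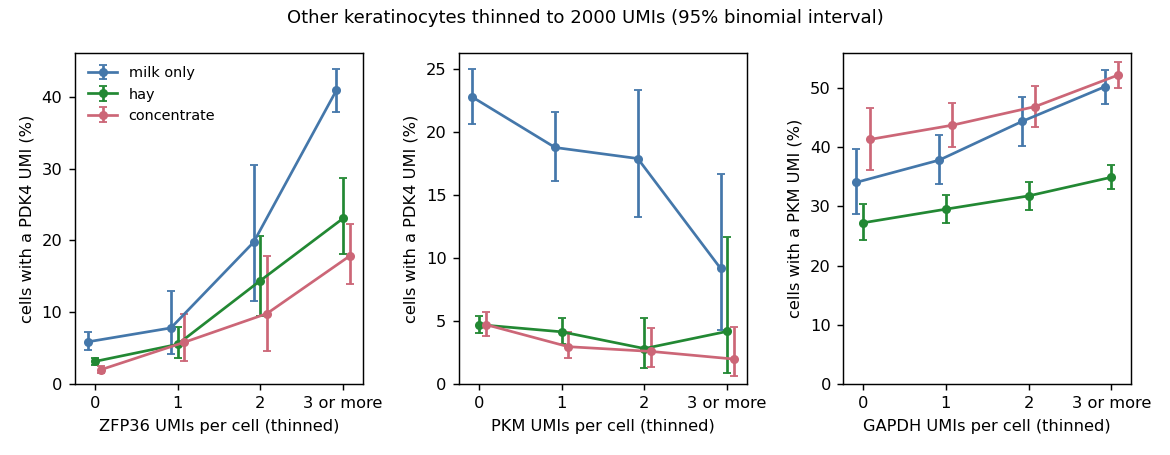
Share of other keratinocytes, thinned to 2000 UMIs, with a PDK4 UMI by ZFP36 UMIs (left) or PKM UMIs (middle), and with a PKM UMI by GAPDH UMIs (right); points are groups of cells of 1 library and bars exact 95% binomial intervals. PDK4 climbs with ZFP36, from 5.86% to 40.9% with milk only, and declines with PKM with milk only and concentrate.

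Of 22 glycolysis genes other than PKM, 16 had a row with their symbol and 6 were measured at 10 CPM or more in keratinocytes. Past 1.5-fold, 0 were higher and 1 lower in hay against milk only, 0 and 1 in concentrate against milk only, and 2 and 0 in concentrate against hay. Over all 4757 genes the shares higher and lower were 5.17% and 20.7%, 9.56% and 13.1%, and 13.8% and 1.93%. The list's median log2 ratio was -0.39, 0.02 and 0.45, against -0.16, 0.04 and 0.19 for all genes. PFKL, a phosphofructokinase, had 98.1, 59.7 and 94.9 CPM with milk only, hay and concentrate, the same order of hay below the rest as PKM. HK1, a hexokinase, had 118.5, 100.2 and 153.9 CPM, and GPI, the isomerase between them, 34.0, 23.5 and 20.5 CPM. By the median of ratios no glycolysis gene was past 1.5-fold in hay against milk only or in concentrate against hay.

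Of 11 genes of the pyruvate dehydrogenase complex and its regulators other than PDK4, 3 were measured. Past 1.5-fold, 1 was higher and 0 lower in each comparison with milk only, and 0 and 1 in concentrate against hay. Shares of all genes were 5.17% and 20.7% (hay against milk only), 9.56% and 13.1% (concentrate against milk only), and 13.8% and 1.93%. PDK3, a kinase of the same family, had 10.9 CPM with milk only, 17.5 for hay and 10.8 for concentrate, so its order was not that of PDK4. PDK1 had 12.5, 10.1 and 14.7 CPM, with no ratio past 1.5-fold. DLD, a subunit shared with other dehydrogenases, had 30.7, 36.1 and 48.8 CPM and was 1.59-fold higher with concentrate than with milk only (1.49 to 1.70).

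Of 12 genes of pyruvate transport, carboxylation and transamination, 5 were measured, and 2 were higher and 0 lower past 1.5-fold in hay against milk only, 3 and 0 in concentrate against milk only, and 0 and 1 in concentrate against hay. Over all genes the shares were, in the same order, 5.17% and 20.7%, 9.56% and 13.1%, and 13.8% and 1.93%. ME1, the cytosolic malic enzyme that makes pyruvate from malate, had 44.1, 94.3 and 88.3 CPM. ME2, its mitochondrial relative, had 35.5, 46.4 and 54.8 CPM. PCK2, the mitochondrial phosphoenolpyruvate carboxykinase, had 20.8, 53.2 and 33.7 CPM. MPC2, a part of the mitochondrial pyruvate carrier, had 86.2, 82.1 and 77.4 CPM and no ratio past 1.5-fold.

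Among 21 factors and targets of PPAR, FOXO and the glucocorticoid receptor, 11 were measured. Past 1.5-fold, 2 were higher and 2 lower in hay against milk only, 2 and 1 in concentrate against milk only, and 2 and 2 in concentrate against hay. Shares of all 4757 genes were, in the same order, 5.17% and 20.7%, 9.56% and 13.1%, and 13.8% and 1.93%. Median log2 ratios of the list were -0.18, -0.30 and -0.02, against -0.16, 0.04 and 0.19 for all genes. FOXO3, a factor known to activate PDK4, had 14.7, 7.38 and 11.9 CPM. FKBP5, a glucocorticoid target, had 21.4, 35.0 and 14.96 CPM. FABP4, a fatty acid carrier, had 1768, 643.0 and 5461 CPM. PLIN2, a coat protein of lipid droplets, had 52.6, 75.7 and 39.5 CPM. None of these 4 had the full diet order of PDK4, though FOXO3 was also highest with milk only. ACADVL, an enzyme of fatty acid oxidation, did, with 73.3, 64.7 and 46.5 CPM, and was 1.58-fold lower with concentrate than with milk only (1.49 to 1.66). CPT1A, which brings fatty acids into mitochondria, had 19.4, 14.5 and 14.3 CPM, highest with milk only as PDK4 was, and no ratio past 1.5-fold.

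Of 6 regulators of PKM splicing and transcription, 5 were measured. Past 1.5-fold, 0 were higher and 2 lower in hay against milk only, 0 and 1 in concentrate against milk only, and 1 and 1 in concentrate against hay. Shares of all 4757 genes were, in the same order, 5.17% and 20.7%, 9.56% and 13.1%, and 13.8% and 1.93%. HIF1A, the hypoxia factor that activates glycolytic genes, had 24.2, 8.47 and 16.4 CPM, lowest with hay as PKM was. MYC had 49.5, 30.4 and 19.5 CPM, lowest with concentrate. The splicing repressors PTBP1 (12.6, 10.9 and 13.5 CPM) and HNRNPA2B1 (1087, 969.2 and 1178 CPM) had no ratio past 1.5-fold.

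Of 12 genes of ketone body and butyrate use, 8 were measured, with 5 higher and 0 lower past 1.5-fold in hay against milk only and 5 and 0 in concentrate against milk only, and with 0 and 1 in concentrate against hay. Over all genes the shares were 5.17% and 20.7%, 9.56% and 13.1%, and 13.8% and 1.93%. The list's median log2 ratios were 0.90, 0.69 and -0.28, against -0.16, 0.04 and 0.19 for all genes. HADH, an enzyme of fatty acid oxidation, had 21.2, 58.6 and 43.7 CPM, ACADS, a short-chain acyl-CoA dehydrogenase, 4.99, 10.3 and 8.36 CPM, and BDH1, which interconverts the ketone bodies, 460.0, 870.0 and 540.6 CPM. These 3 genes were lowest with milk only, the library in which PDK4 was highest.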

How the data were processed

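The deposited matrices hold raw UMI counts per gene and barcode for 3 libraries. They were made with Cell Ranger, version 3.1 per the submitters' processing notes and 5.0.0 per the file headers; the genome build is not given in the sources used here. Groups came from the sample titles. Totals were 63057979, 56861548 and 60220174 UMIs over 7032, 9543 and 9214 barcodes with milk only, hay and concentrate.

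Cells had at least 500 genes and under 20% counts from 13 mitochondrial genes; doublets were not called and were kept. Scanpy 1.11.5 scaled cells to 10000 UMIs and clustered them on 2000 variable genes (PDK4 among them, PKM not), 30 principal components and 15 neighbours, at Leiden resolution 0.6. A cluster took the name of the marker list with the highest median fold, with at least 3 markers at 20 CPM and 2-fold; clusters with no list were kept as other keratinocytes.

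CPM are UMIs summed over cells and scaled to 1000000. Intervals are exact Poisson, conditional binomial or Clopper-Pearson (scipy 1.17.1). Where no UMI was seen, the limit is 3 UMIs. The ratio and thinning code was checked on simulated data. No test was run, as each diet has 1 library. From each gene list the text names genes past 1.5-fold with an interval excluding 1, up to 4 per list and comparison, and the 5 genes most like each member; others, such as GAPDH, PDK1, MPC2, PTBP1 and HNRNPA2B1, were named after their values were seen. Some genes that this rule names are not reported here. The members and lists were chosen with earlier results of these data known.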

Additional observations from a re-analysis of the deposited data

How the results depend on the processing

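Of 112 ratios of PKM and PDK4 recomputed under other settings, 64 stayed within their counting interval, 47 moved outside it with the same direction and 1 reversed. The reversed one was PDK4 in hay against milk only without the ZFP36 and ATF3 cluster, with a log2 ratio of 0.0052. The same setting gave -0.45 for PDK4 in concentrate against milk only, and -0.82 and 0.24 for PKM in hay and in concentrate against milk only. Without that cluster and the FOS and HSPA6 cluster, PDK4 was at -0.83 and -1.25 against milk only, and PKM at -0.80 in hay against milk only and 1.12 in concentrate against hay. These settings, the one without the AKR1D1 cluster and the scaling of the gene lists were chosen after seeing the data; the cause of each move was not tested.

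For PKM in hay against milk only, the log2 ratio was -0.68 with at least 1000 genes per cell, -0.78 without the differentiated cluster, -0.82 in other keratinocytes, -0.91 in cycling cells, -0.58 by the median of ratios, -0.60 without the 50 most abundant genes, -0.96 with classes weighted alike and -0.65 as the mean of each cell's CPM. For PKM in concentrate against milk only it was 0.38 under 10% mitochondrial counts, 0.36 with at least 1000 genes, 0.29 without the differentiated cluster, 0.22 in other keratinocytes, 0.19 in cycling cells, 0.29 by the median of ratios, 0.39 without the 50 most abundant genes and 0.12 with classes weighted alike. For PKM in concentrate against hay it was 1.14 under 10% mitochondrial counts, 1.11 in cycling cells, 0.86 by the median of ratios, 0.99 without the 50 most abundant genes and 0.97 as the mean per cell.

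For PDK4 in hay against milk only it was -2.65 under 10% mitochondrial counts, -2.64 without the differentiated cluster, -2.56 in other keratinocytes, -0.31 in cycling cells, -2.24 by the median of ratios, -2.26 without the 50 most abundant genes and -2.07 with classes weighted alike. In concentrate against milk only it was -2.94, -3.01 with at least 1000 genes, -3.05, -2.95, -0.80, and -2.52 with classes weighted alike and -2.56 as the mean per cell. In concentrate against hay it was -0.29 under 10% mitochondrial counts, -0.63 by the median of ratios and -0.17 as the mean per cell. Immune cells against keratinocytes gave 0.24 for PKM without the 50 most abundant genes and -4.52 for PDK4 as the mean per cell.

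Thinned to 1000 and 4000 UMIs, the share of other keratinocytes with a PKM UMI was 27.6% and 64.9% with milk only, 18.3% and 52.0% with hay, and 32.1% and 73.1% with concentrate. For PDK4 it was 12.2% and 32.5%, 2.57% and 7.69%, and 2.31% and 7.04%. PDK4-positive cells among PKM-positive ones were 9.92% and 29.7%, 1.81% and 7.26%, and 1.88% and 6.34%. Among PKM-negative ones they were 13.1% and 37.7%, 2.74% and 8.16%, and 2.51% and 8.94%. At 4000 UMIs, rho of PKM with PDK4 was -0.12 with milk only, -0.02 for hay and -0.07 for concentrate. In all milk-only keratinocytes thinned to 2000 UMIs, the share among PKM-positive cells was 14.9%.

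Genes higher and lower past 1.5-fold numbered 246 and 987 in hay against milk only, 455 and 621 in concentrate against milk only, and 657 and 92 in concentrate against hay. From 1 CPM they were 529 and 2782, 1015 and 1788, and 1939 and 282. From 50 CPM they were 99 and 298, 166 and 215, and 159 and 39. By the median of ratios they were 442 and 729, 394 and 658, and 328 and 221. By that scaling the glycolysis list had 0 genes past 1.5-fold in hay against milk only and 0 in concentrate against hay. The splicing list had 1 in hay and 2 in concentrate against milk only, and the ketone list 3 in concentrate against hay. No paired analysis was possible because each diet has 1 library. Depth limits PDK4 in immune cells, with at most 36 UMIs a library, and in differentiated cells, with 1 UMI for hay and 2 for concentrate.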

Other observations

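Barcodes left out for their mitochondrial share had less PKM in all 3 libraries, and less PDK4 with milk only and concentrate. Those with 20% or more mitochondrial counts had 111.4, 138.4 and 194.3 CPM of PKM with milk only, hay and concentrate, against 359.2, 214.1 and 444.4 CPM in the cells kept. Their PDK4 was 16.7, 21.4 and 8.63 CPM, against 121.7, 24.5 and 18.0 CPM, and the hay intervals overlapped (18.8 to 24.2 and 23.1 to 26.0). In these barcodes with 20% or more mitochondrial counts, milk only was thus lowest in PKM and no longer highest in PDK4. Barcodes left out only for too few genes had 243.4, 44.8 and 176.8 CPM of PKM with milk only, hay and concentrate. Milk only was highest there, and the hay value rests on 4 UMIs in 34 barcodes.

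In the cycling cluster led by TOP2A, PDK4 was 23.4 CPM with concentrate and 13.7 CPM with hay, a ratio of 1.70 (1.18 to 2.41), the reverse of the order over all keratinocytes. The concentrate value rests on 46 UMIs in 183 cells.

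PTPRC, a leukocyte marker, was 2.76 CPM in milk-only keratinocytes, 0.222 with hay and 0.180 with concentrate, against 653.0, 697.9 and 635.9 CPM in the immune cells of the same libraries.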
